A study of Drosophila melanogaster with 3 samples.

Results

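Phototransduction and retinal genes encode the proteins with which the fly eye detects light and the structures that house them. The set held 34 genes by name, and 25 of them had a probe set carrying their symbol alone. Of these, 23 were bright enough to compare and 2 were too dim, out of 11982 named genes of which 5991 were compared. Values for the remaining 9, namely Rh2, Rh3, Rh4, Rh5, Rh6, norpA, ninaA, ninaC and Ggamma30A, were not analysed here, so the opsins themselves are not described. The rule picks the genes by name and uses no measured value, although the list was drawn up with earlier results of these data known.

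In a fly photoreceptor, light-activated rhodopsin switches on a Gq protein, which stimulates a phospholipase C. Breakdown of a membrane phosphoinositide then opens the TRP and TRPL cation channels, and the cell depolarizes. Arrestins, a rhodopsin phosphatase and the resynthesis of the lipid end the response, and a chromophore made from dietary carotenoids renews the rhodopsin. These steps take place in the rhabdomere, a stack of microvilli.

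Whole-head RNA of adult Drosophila melanogaster was hybridised to 3 Affymetrix arrays, 1 for each genotype. The control was p247-Gal4,tub-gal80[ts]/+, the second genotype added UAS-PKA-DN, which encodes dominant-negative protein kinase A (PKA), and the third added UAS-PKA-CA, a constitutively active form. All genotypes therefore carried the driver, described by the submitters as specific to the mushroom bodies, and the temperature-sensitive repressor Gal80. All flies were reared at 18 °C, moved at 3 days of age to 32 °C for 12 to 16 h, and are given as 4 to 6 days old after hatching. The submitted design text assigns raised and lowered PKA activity to the transgenes in the order opposite to their names. PKA-DN is taken here as the form that lowers activity. The comparisons ask which head transcripts differ with PKA activity in the mushroom bodies. The control as given carried no UAS transgene. In the ratios over control, PKA activity, the presence of a UAS transgene and strain background therefore cannot be told apart. The retina is not part of the tissue in which the driver is described to act, and its RNA was measured in the same whole-head extract. The sources used here do not give the sex of the flies or how many were pooled.

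Each gene is described by its MAS5 signal, an array intensity on a linear scale, and by log2 ratios of signals for 3 comparisons, PKA-DN/control, PKA-CA/control and PKA-CA/PKA-DN, each written as numerator and denominator. With 1 array per genotype no value has a replicate error and no test was possible, so differences between flies, extractions and hybridizations are included in every ratio. Across the 5991 compared genes the SD of the log2 ratio was 0.25, 0.27 and 0.28 in these comparisons. Both ratios over control share the control array. In whole-head RNA, fewer cells of a type and less RNA per cell cannot be told apart.

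The head label was checked first. Retinal transcripts gave strong signals on every array, and 23 of the 25 named members lay above the highest control probe set on all 3 arrays. Neuron markers (10 of 10) and glial markers (9 of 9) did so too, as did 10 of 11 genes listed as markers of eye pigment cells. How specific the listed genes are to pigment cells was not tested. All 9 markers of the male reproductive tract and all 4 gut markers lay at or below that level on every array, and so did 7 of 9 ovary markers. Antennal markers were mixed, with 2 of 7 above that level on all arrays and 3 of 7 at or below it on all. Obp19d, an odorant-binding protein gene, had signals of 9786, 9655 and 9843 (always in the order control, PKA-DN, PKA-CA). Orco, the shared odorant co-receptor gene, had 57.4, 68.1 and 30.5, all below the highest control probe set of the array. The ratio of 3' to 5' signal, a measure of RNA integrity, ran over the arrays from 1.70 to 2.05 for GAPDH, from 1.70 to 2.29 for actin and from 2.33 to 3.01 for eIF-4a. Its part in the ratios below was not tested.

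As a group, the phototransduction and retinal genes had nearly the same signals in all 3 genotypes. No compared member differed by 1.5-fold or more in any of the comparisons. Among all compared genes, 1.49% were that much higher and 1.44% that much lower for PKA-DN/control, 1.72% and 1.89% for PKA-CA/control, and 2.22% and 2% for PKA-CA/PKA-DN. A count of 0 among 23 genes is therefore near this background.

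The median log2 ratio of the 23 members was 0.01 for PKA-DN/control, with 13 higher and 10 lower, against -0.01 over all compared genes. For PKA-CA/control it was -0.01, with 11 higher and 12 lower, against -0.003 over all. For PKA-CA/PKA-DN it was -0.05, with 10 higher and 13 lower, against 0.001 over all. Quantile normalization turned the median for PKA-CA/control to 0.10 and that for PKA-CA/PKA-DN to 0.02, and cyclic loess turned them to 0.05 and 0.02. Averaging probe sets turned the median for PKA-DN/control to -0.03. The median size of the members' log2 ratio, sign ignored, was 0.11, 0.17 and 0.12 in the same order of comparisons, beside 0.13, 0.15 and 0.15 over all compared genes. All 23 members lay within the central 95% of compared genes in each comparison.

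A lower mark of 1.25-fold, chosen after the values had been seen, separated a few members from the others. For PKA-DN/control 3 members were higher by that much (trpl, laza and ninaG) and 3 lower (rdgA, rdgB and Pdh), beside backgrounds of 6.13% and 7.66%. Of these, rdgB lay on the mark. The lower count was 2 under all 3 other scalings, with 64 added to signals and with probe sets averaged. The gene that dropped out was Pdh under quantile normalization (-0.28) and rdgA with probe sets averaged (-0.09). In the other settings it was rdgB. The higher count was 2 under quantile normalization. For PKA-CA/control none was higher and 2 were lower (Arr2 and Pdh), beside 7.85% and 9.66%. These PKA-CA/control counts became 1 higher and 0 lower under quantile normalization and 1 higher and 1 lower under cyclic loess. For PKA-CA/PKA-DN 1 was higher (rdgB) and 1 lower (laza), beside 9.7% and 9.68%.

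**Figure D1:**
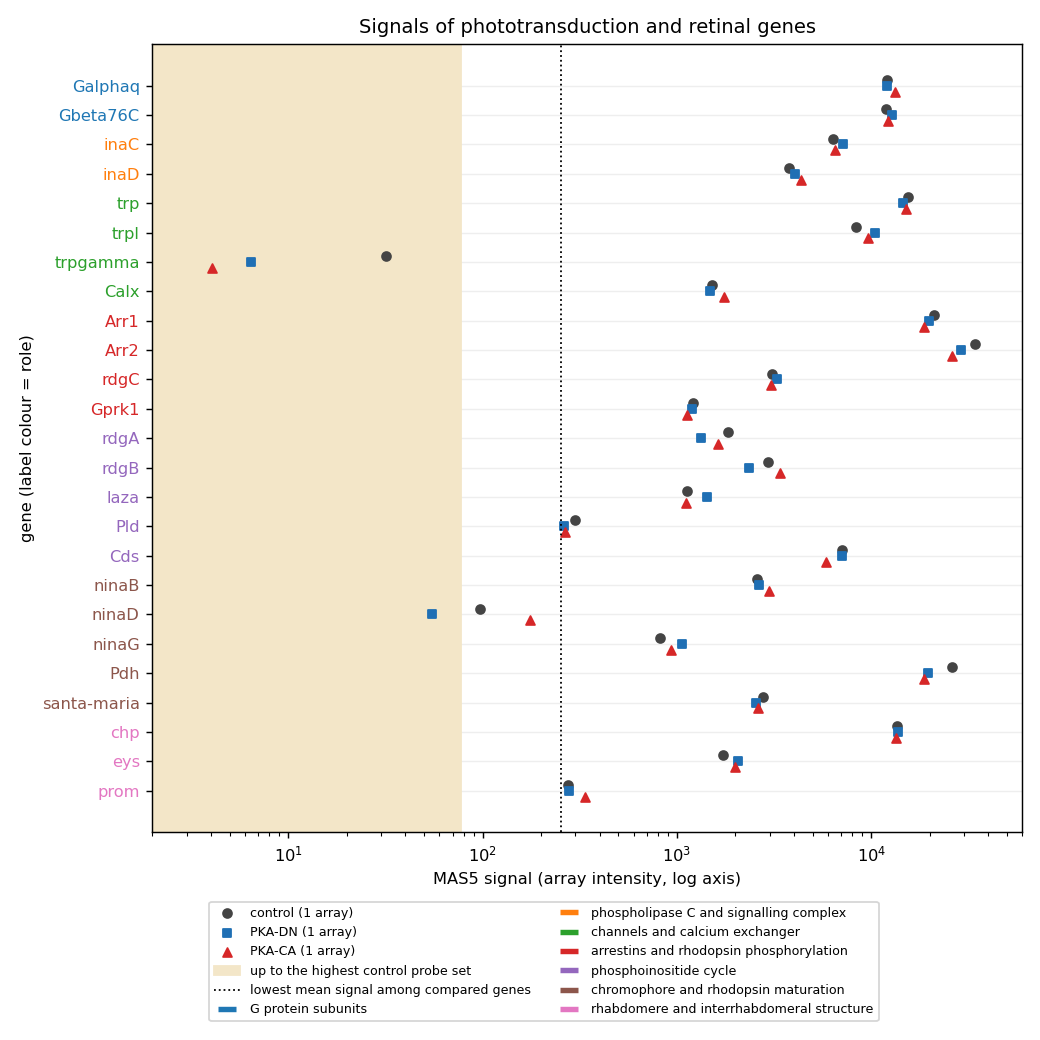
MAS5 signal (log axis) of the 25 named members on each array, with 1 point per genotype and gene names coloured by role. The points of most genes nearly coincide; only trpgamma and ninaD lie left of the dotted line, the lowest mean signal among compared genes (254), and the shaded band ends at the highest control probe set of any array (77.8).

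**Figure D2:**
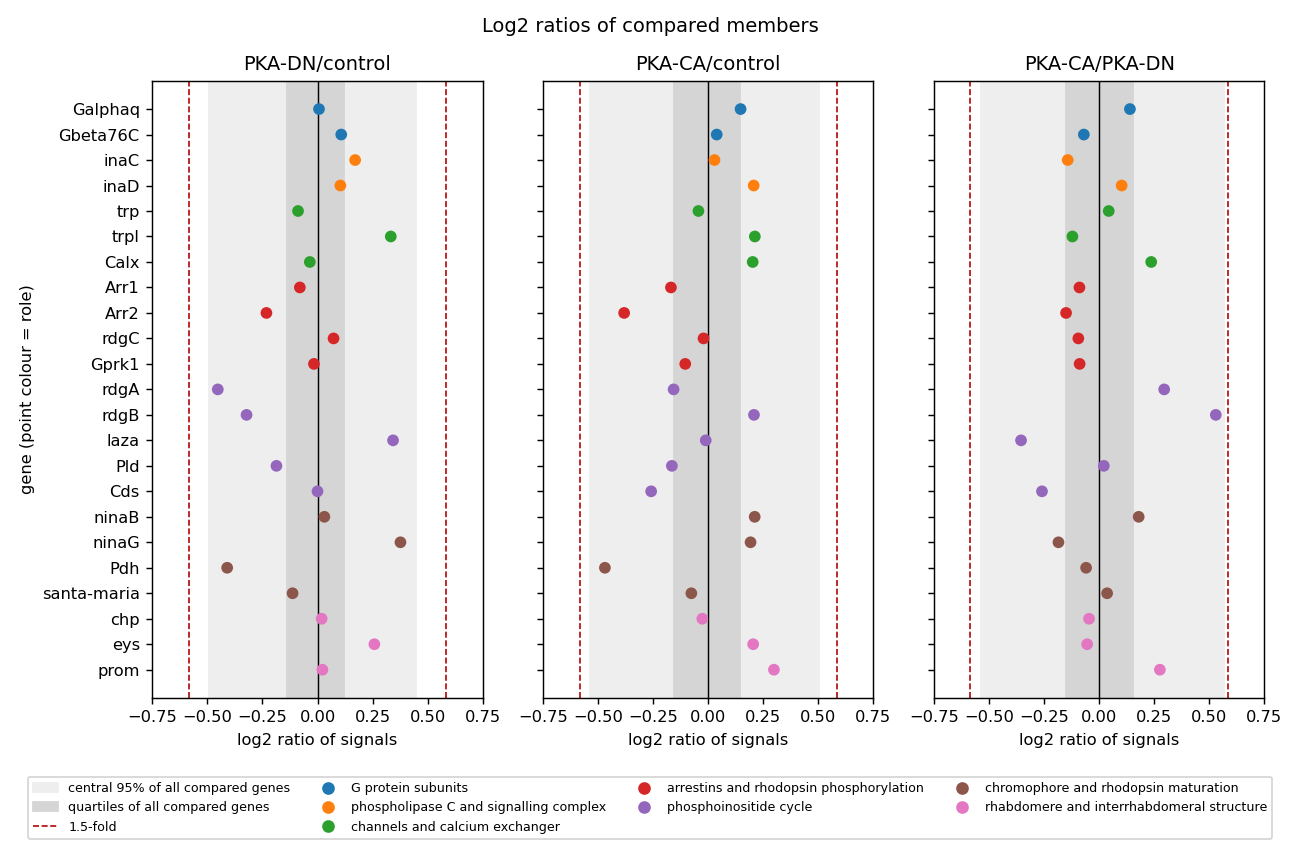
Log2 ratios of the 23 compared members in each comparison, coloured by role, on the quartile range (dark grey) and the central 95% (light grey) of 5991 compared genes. Every member lies inside the 1.5-fold lines; rdgB at 0.53 for PKA-CA/PKA-DN comes closest.

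At their brightest probe sets, the analysed genes of the G protein that couples rhodopsin to the phospholipase showed little difference. Galphaq, the alpha subunit gene, had signals of 12006 in the control, 12063 in PKA-DN and 13289 in PKA-CA. Gbeta76C, the eye-enriched beta subunit gene, had 11910, 12835 and 12228 in the same order. The log2 ratios over control were 0.01 and 0.15 for Galphaq and 0.11 and 0.04 for Gbeta76C, PKA-DN first.

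Of the listed genes of the signalling complex around the scaffold INAD, inaC and inaD were analysed, and norpA and ninaC were not. Both analysed genes had slightly higher deposited signals on each PKA array than on the control array. inaC, the eye protein kinase C that helps to end the response, had signals of 6393, 7198 and 6518. inaD, the PDZ-domain scaffold itself, had 3765, 4046 and 4343. The log2 ratios of inaC were 0.17 and 0.03, the latter turning to -0.0004 when the arrays were centred on their medians, and those of inaD were 0.10 and 0.21.

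The light-gated channel genes did not follow each other. trp, the gene of the main calcium-permeable channel, had signals of 15510, 14587 and 15032, within 0.09 of each other on the log2 scale. trpl, the gene of the second channel, had 8344, 10510 and 9659, lowest in the control. Its log2 ratios over control were 0.33 and 0.21, and they kept their sign under all 3 other scalings, between 0.32 and 0.35 for PKA-DN and between 0.18 and 0.27 for PKA-CA. Calx, the sodium/calcium exchanger gene that clears calcium after the response, had 1512, 1475 and 1738, with ratios of -0.03 and 0.20. The third channel gene of the family, trpgamma, lay at background, with signals of 31.7, 6.47 and 4.06 that were all below the highest control probe set of their array, so no fold is given for it.

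The genes that shut off rhodopsin included the bright arrestins. Arr2, the major arrestin gene, had signals of 34064 in the control, 29003 in PKA-DN and 26127 in PKA-CA, with log2 ratios of -0.23 and -0.38. Arr1 had 20946, 19813 and 18617, with ratios of -0.08 and -0.17. Both were thus highest on the control array and lowest on the PKA-CA array. Quantile normalization removed this order: it turned the ratios of Arr2 to 0.05 and 0.02 and those of Arr1 to 0.01 and 0.04. rdgC, the calcium-dependent rhodopsin phosphatase gene, had 3098, 3259 and 3051, with ratios of 0.07 and -0.02. Gprk1, a gene for a rhodopsin kinase, had 1214, 1201 and 1129, with ratios of -0.02 and -0.11.

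Genes of the phosphoinositide cycle had ratios of both signs. rdgA, the diacylglycerol kinase gene that starts lipid resynthesis, had signals of 1822 in the control, 1331 in PKA-DN and 1633 in PKA-CA, with log2 ratios of -0.45 and -0.16. rdgB, the phosphatidylinositol transfer protein gene, had 2944, 2354 and 3399, with ratios of -0.32 and 0.21. Both were lowest on the PKA-DN array. Between the PKA arrays rdgB was 1.44-fold higher in PKA-CA (log2 ratio 0.53), the widest ratio of any compared member in any comparison, and it lay between 0.50 and 0.53 under the other scalings. laza, the lipid phosphate phosphatase gene that opposes rdgA, had 1122, 1423 and 1113 in the same order. It was therefore highest on the PKA-DN array, with ratios of 0.34 and -0.01, and PKA-CA/PKA-DN was -0.36. Cds, which makes the CDP-diacylglycerol intermediate, had 7044, 7044 and 5882, equal in the control and PKA-DN and with a ratio of -0.26 for PKA-CA/control. Pld, the phospholipase D gene, had 298, 262 and 265, with ratios of -0.19 and -0.17 from signals close to the lowest mean among compared genes.

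The chromophore genes contained the lowest ratio in PKA-CA/control and the highest in PKA-DN/control. Pdh, the photoreceptor dehydrogenase of the visual cycle, had signals of 26033 in the control, 19586 in PKA-DN and 18794 in PKA-CA. Its log2 ratios were -0.41 and -0.47, so both PKA arrays lay below the control. They were -0.28 and -0.20 under quantile normalization and -0.39 and -0.37 under cyclic loess. ninaG, an oxidoreductase gene needed to make the 3-hydroxyretinal chromophore, had 816, 1060 and 932, with ratios of 0.38 and 0.19. ninaB, the carotenoid-cleaving oxygenase gene, had 2585, 2642 and 2992, with ratios of 0.03 and 0.21. santa-maria, a scavenger receptor gene for carotenoid uptake, had 2762, 2554 and 2618, with ratios of -0.11 and -0.08.

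ninaD, the other scavenger receptor gene for carotenoid uptake, was too dim to compare. Its signals were 97.4, 54.9 and 175, so it was lowest in PKA-DN and highest in PKA-CA. Its PKA-DN signal was below the highest control probe set of that array (77.8), while the other signals were above theirs (77.0 and 70.9). Set against 77.8 in place of the PKA-DN signal, PKA-CA was 2.24-fold and the control 1.25-fold higher. PKA-CA was 1.79-fold higher than the control. All of these folds rest on single dim signals.

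Of the genes of the rhabdomere and of the space between rhabdomeres, only chp was nearly level among the arrays. chp, encoding the photoreceptor adhesion protein chaoptin, had signals of 13598, 13777 and 13342, within 0.05 on the log2 scale. eys, encoding the matrix protein that fills the interrhabdomeral space, had 1734, 2074 and 1997, with log2 ratios of 0.26 and 0.20. prom, encoding the prominin that binds it, had 274, 279 and 337, with ratios of 0.02 and 0.30. The latter was the highest PKA-CA/control ratio of the compared members, from signals close to the lowest mean among compared genes.

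The ratios of the brightest members were set beside those of other bright genes, because bright genes as a class were lower on both PKA arrays. Among the 40 compared genes with a mean signal above 20000, the median log2 ratio was -0.17 for PKA-DN/control and -0.31 for PKA-CA/control, and these medians moved to -0.01 and -0.02 under quantile normalization. Arr2 and Pdh are the members in that class. Arr2 lay 0.06 and 0.07 below its medians, and Pdh 0.24 and 0.16 below them. For the 146 genes above 10000 the median for PKA-CA/control was -0.18, and the 7 members among them had a median of -0.05. The part of array scaling in these differences was not tested.

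**Figure D3:**
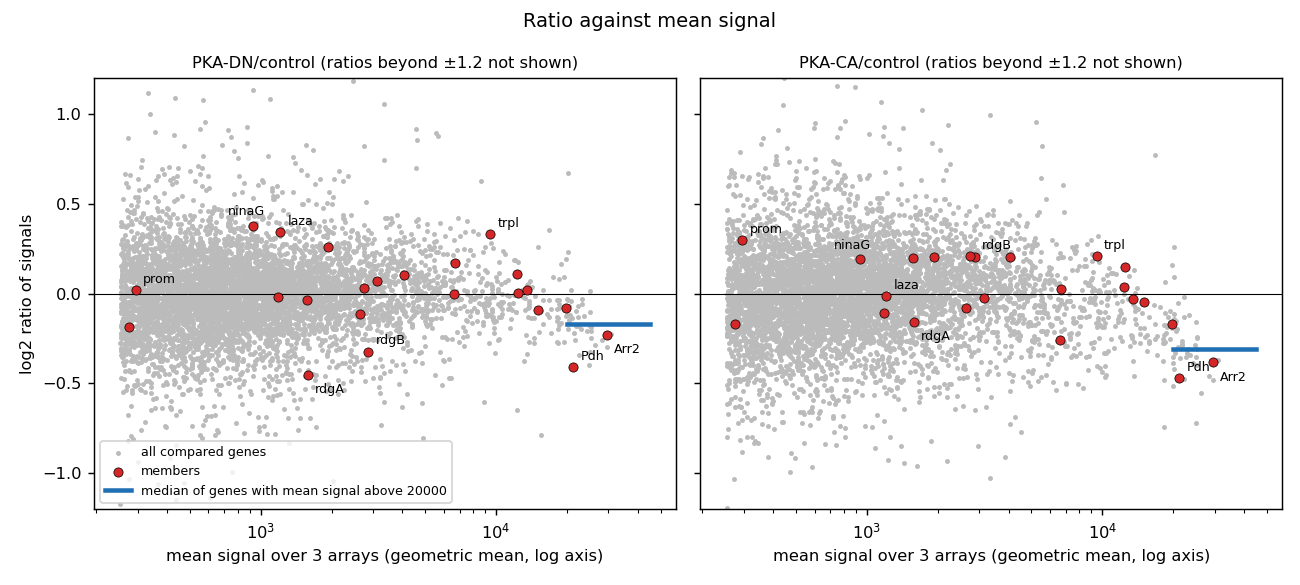
Log2 ratio over control (vertical axis) against the geometric mean signal over the 3 arrays (log axis) for PKA-DN (left) and PKA-CA (right), with compared genes in grey and members in red. The blue bar is the median of the 40 genes with a mean signal above 20000, at -0.17 (left) and -0.31 (right); Pdh and Arr2 lie below it in both panels.

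Members with several probe sets gave a view of how far 1 gene's probe sets differed. The brightest was used above, and 6 further probe sets of members, from 4 genes, had a mean signal at or above the lowest among compared genes. For PKA-CA/control 2 of these 6 differed by 1.5-fold or more, beside 7.2% of the 389 such probe sets of all genes. For PKA-DN/control none did, beside 4.37%, and for PKA-CA/PKA-DN 1 did, beside 7.46%.

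The probe sets of rdgA disagreed most plainly. The brightest had the signals given above, lowest in PKA-DN. The second had 1471, 1433 and 900, so PKA-CA was 1.64-fold below the control (log2 ratio -0.71). The third had 933, 1123 and 1262, which is a ratio of 0.44 for PKA-CA/control. Averaged over its 4 probe sets, rdgA had ratios of -0.09 and -0.15, and PKA-CA/PKA-DN took the opposite sign at -0.06.

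Galphaq had 1 probe set apart from the others. Its second probe set had signals of 992, 757 and 576, so PKA-CA was 1.72-fold below the control (log2 ratio -0.78). The other probe sets of Galphaq had ratios of 0.15 and 0.12 for the same comparison. Averaged over its probe sets, Galphaq had ratios of -0.13 and -0.17 over control and -0.04 for PKA-CA/PKA-DN. Each was opposite in sign to that of the brightest probe set. For rdgB the second probe set had 782, 553 and 662, which was also lowest in PKA-DN (log2 ratio -0.50) but was below the control in PKA-CA (-0.24). The second probe set of rdgC had 2078, 1818 and 2406. Its ratios over control, -0.19 and 0.21, were opposite in sign to those of the brightest probe set. Of the dimmer probe sets, 1 of prom had 270, 179 and 328, which is 1.83-fold higher in PKA-CA than in PKA-DN, where the brightest one gave 1.21-fold. For PKA-DN/control that dimmer probe set was 1.51-fold lower (log2 ratio -0.59), where the brightest one had a ratio of 0.02. Its mean signal of 251 was just under the filter, so the counts above leave it out. Which transcripts each probe set covers was not analysed here.

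**Figure D4:**
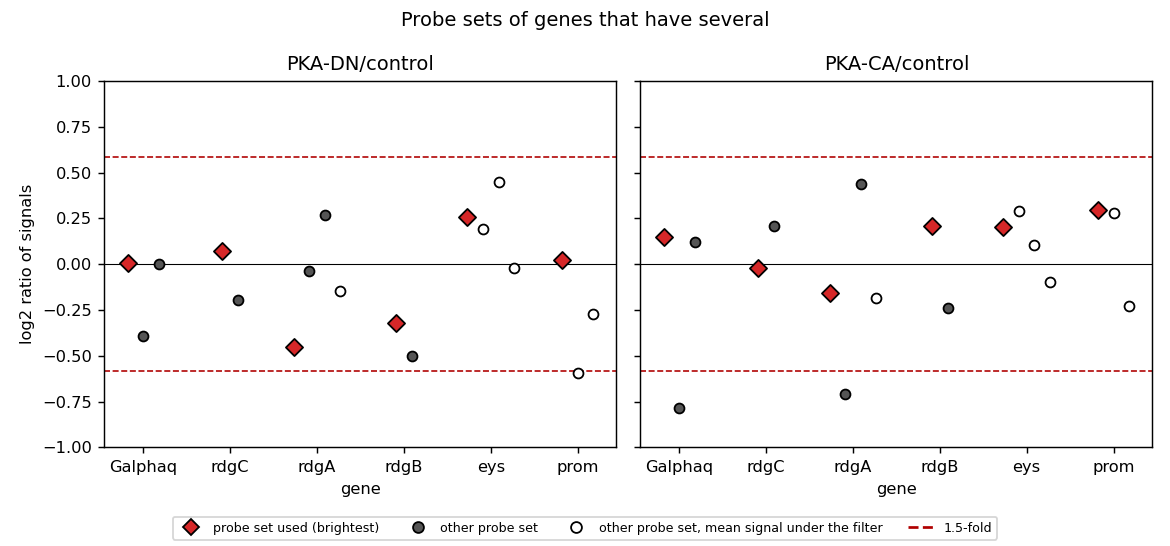
Log2 ratios over control for each probe set of the 6 members with several, for PKA-DN (left) and PKA-CA (right), with the probe set used as a red diamond, others as circles (white if under the signal filter) and dashed lines at 1.5-fold. The second probe sets of Galphaq (-0.78) and rdgA (-0.71) fall beyond the line for PKA-CA, and that of prom (-0.59), under the filter, falls beyond it for PKA-DN.

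Other genes of the pathway were drawn from lists made by name. The list of further phototransduction and visual cycle genes gave 18 compared genes of 27 names. None differed by 1.5-fold in any comparison. The medians were -0.01, 0.03 and 0.08 for PKA-DN/control, PKA-CA/control and PKA-CA/PKA-DN, the first turning to 0.001 under cyclic loess. When probe sets were averaged, the second was -0.02. The highest ratio in PKA-DN/control was that of stops, which maintains the phospholipase C protein, with signals of 1919, 2567 and 2293 (log2 ratio 0.42), and the lowest was that of Camta, a calmodulin-binding transcription factor gene, at -0.30. For PKA-CA/control the extremes were Rh7, an opsin family gene, at 0.31 and the blue-light receptor gene cry at -0.22, and for PKA-CA/PKA-DN they were Camta at 0.53 and cry at -0.25.

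Photoreceptors signal to the brain with histamine, which glia convert to carcinine and photoreceptors recover. Of 7 compared genes of this cycle, 1 passed 1.5-fold, and it was lower both for PKA-DN/control (1.44% of all compared genes) and for PKA-CA/control (1.89%). It was ebony (e), the glial enzyme that joins histamine to beta-alanine, with signals of 800 in the control, 360 in PKA-DN and 291 in PKA-CA (log2 ratios -1.15 and -1.46). The postsynaptic histamine channel gene ort was lower on both PKA arrays too, at 630, 434 and 429 (log2 ratios -0.54 and -0.55). In contrast Hdc, the histidine decarboxylase that makes histamine in photoreceptors, was higher on both, at 1532, 1918 and 2118 (0.32 and 0.47). tan (t), which releases histamine from carcinine, had 6293, 6153 and 7377. Balat, a further gene of the list, was under the signal filter and not compared. Its signals were 307, 186 and 115, all above the highest control probe set of their array. They were 1.65-fold below the control in PKA-DN and 2.66-fold below it in PKA-CA. The list median was -0.03 for PKA-DN and 0.23 for PKA-CA/control, and 0.14 for PKA-CA/PKA-DN. Glial markers, a list that also holds e, had medians of -0.11 and -0.32 over control, with 7 of 9 lower in each comparison. In each, 2 of 9 were 1.5-fold or more lower, beside 1.44% and 1.89% of all compared genes, and 0 were that much higher. These were e and alrm, the latter with log2 ratios of -0.69 and -0.74. The summed signals of the glial markers were 22978, 20942 and 19036. The part of RNA from glia in the ratio of e was not tested.

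Some genes of retinal transcription factors passed 1.5-fold. Of 12 compared, 10 were higher and 2 lower for PKA-CA/control (median 0.25), and 11 were higher and 1 lower for PKA-CA/PKA-DN (median 0.22). For PKA-DN/control 6 were higher and 6 lower (median 0.01, or -0.004 when probe sets were averaged). For PKA-CA/PKA-DN 3 passed 1.5-fold, all higher, beside 2.22% higher and 2% lower of all compared genes, and for PKA-DN/control 1 did, which was lower, beside 1.44%. prospero (pros), which acts in R7 photoreceptors and cone cells, had signals of 951, 510 and 983 (log2 ratio 0.95 for PKA-CA/PKA-DN, and -0.90 for PKA-DN/control). eyes absent (eya), a retinal determination gene, had 878, 592 and 1058 (0.84), and onecut, a homeodomain factor gene, 1536, 1247 and 2145 (0.78). In pros the control and PKA-CA signals were close and PKA-DN lay below them, while eya and onecut were spread over all arrays with PKA-DN lowest. glass (gl), needed for photoreceptor identity, had 718, 816 and 997, and Pph13, which drives rhabdomere genes, had 1563, 1878 and 1529.

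Several of these factors are also made in the brain. Neuron markers had a median of -0.11 for PKA-DN/control, with 8 of 10 lower. Their median was 0.09 for PKA-CA/control, with 8 of 10 higher, and 0.28 for PKA-CA/PKA-DN, with 9 of 10 higher. Their summed signals were 37669, 35841 and 41330. elav, the pan-neuronal RNA-binding protein gene, had 619, 421 and 637 (log2 ratio 0.60). Markers of other head tissues also differed between the arrays. Muscle markers had medians of 0.19 for PKA-DN/control, with 7 of 9 higher, and of 0.53 for PKA-CA/control, with 9 of 9 higher. For PKA-CA/PKA-DN the median was 0.32. Past 1.5-fold were 3 higher and 1 lower for PKA-DN/control (1.49% and 1.44% of all compared genes) and 4 higher for PKA-CA/control (1.72%). For PKA-CA/PKA-DN 2 were higher by that much (2.22%). The summed signals of muscle markers were 12575, 16693 and 18926. Head fat body markers had a median of 0.05 for PKA-DN/control, with 4 of 6 higher. Their medians were -0.32 both for PKA-CA/control and for PKA-CA/PKA-DN, and their summed signals were 99148, 108499 and 90360. One of them, Lsp2, was 1.60-fold higher for PKA-DN/control (1.49% of all compared genes). The 3 yolk protein genes of the female fat body were lower in each comparison. Their medians were -0.29, -0.56 and -0.27, with summed signals of 97222, 79591 and 65450. Among them, Yp3 was 1.64-fold lower for PKA-CA/control (1.89%). Under quantile normalization the PKA-CA/control medians of the fat body lists were nearer 0, at -0.07 for the head and -0.21 for the yolk protein genes. The part of RNA from neurons or from these tissues in the ratios of the factors was not tested. Of the last list, genes of the lens and eye surface, only cut (ct) was compared, with 322, 253 and 324. Genes listed as markers of eye pigment cells, which surround the photoreceptors, had medians of -0.01, -0.04 and -0.07 in the 3 comparisons. These medians were close to those of the members, and the summed signals lay between 14034 and 14711. How far these genes report on pigment cells was not tested.

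**Figure D5:**
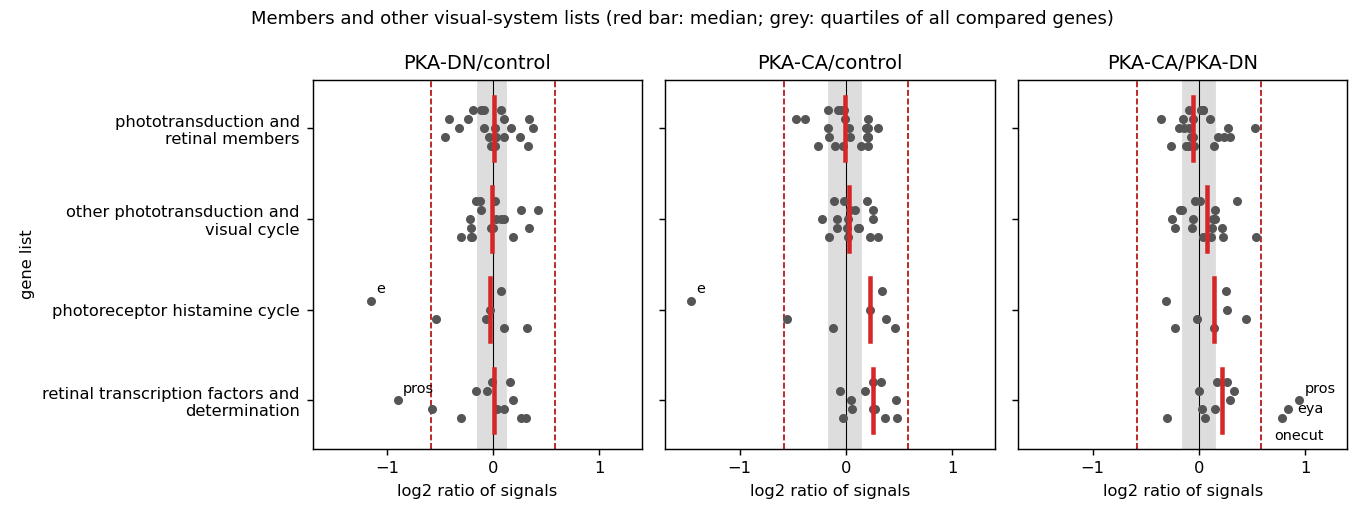
Log2 ratios (horizontal axis) of the members and of 3 other visual-system lists in each comparison, 1 grey point per compared gene, with the list median as a red bar, the quartiles of all compared genes shaded and 1.5-fold as dashed lines. No member passes 1.5-fold, whereas e (left and middle panels), pros (left and right), and eya and onecut (right) do.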

How the data were processed

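RNA from adult heads was measured on 3 arrays, 1 per genotype. The deposited values are linear array intensity, 1 MAS5 signal per probe set per the submitters' processing notes, with no version or settings stated in those used here. The mean signal without the highest and lowest 2% of the 18952 probe sets was 500 on every array, so scaling preceded deposit. Values were used as deposited and placed on the log2 scale with no constant added. Gene names came from the platform table, in which 13647 probe sets have a single symbol, 402 have several and 4903 are not listed. Symbols were updated for 13544 through RefSeq genes of the assembly Release 6 plus ISO1 MT, used for names only. For 1094 of 11982 genes with several probe sets, the one with the highest mean log2 signal was used. Genes in the upper 50% by that mean, above 254, were compared. Background was the highest of 99 AFFX-Dm control probe sets, taken here as a background level, after 1 above 1000 was left out.

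No test was run, with 1 array per group, and precision is limited by that number. All members are named. Compared genes of the other visual-system lists are named if 1.5-fold apart in some comparison or, in a list with none, at an extreme. A few others were chosen after their values were seen. Marker lists are given by counts, medians and summed signals. Members and lists were chosen with earlier results of these data known. The counting was tested on simulated data. Alternatives were quantile and cyclic loess normalization (limma 3.58.1, R 4.3.3), median centring, 64 added to signals, probe sets averaged, no signal filter and the upper 25%. Other steps used Python 3.11.15 and pandas 2.3.3.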

Additional observations from a re-analysis of the deposited data

How the results depend on the processing

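The absence of 1.5-fold differences among compared members held in all 3 comparisons under the 3 other scalings, with 64 added, with probe sets averaged and in the upper 25% by signal, where 21 members were compared. With no signal filter, which adds the dim genes trpgamma and ninaD, 2 members were 1.5-fold or more lower for PKA-DN/control, and 1 was higher and 1 lower both for PKA-CA/control and for PKA-CA/PKA-DN. The median for PKA-CA/control moved from -0.01 to 0.10 under quantile normalization; the other medians moved by less than 0.1. Of 23 members, 2 took the opposite sign under some other scaling for PKA-DN/control, 5 for PKA-CA/control and 4 for PKA-CA/PKA-DN; the widest such ratio was that of Arr2 (-0.38 to 0.02, PKA-CA/control). The 1.25-fold counts moved by more than 1.5 times in 9 of 42 recomputed values. Averaging probe sets moved prom in PKA-DN/control to -0.28 and Galphaq in PKA-CA/control to -0.17. The cause was not tested. No paired analysis was possible because each group has 1 array, and for the same reason no array could be left out.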
